A study of Mus musculus with 2 samples.

Results

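The 39 genes described here are interferon-induced genes of the mouse, read in liver RNA of C57BL/6 mice on 2 Agilent 2-colour arrays. They were taken from a list of symbols, with no threshold on their values, and were found by the gene name, or an older name, printed for each probe, corrected where the RefSeq accessions of a name belonged to another gene. All 39 were on the arrays, with 49 probes, among 31701 genes and other transcripts named there, of which 22376 were well above background in at least 1 channel. By role they were 6 immunity-related GTPases (IRG), 5 guanylate-binding proteins, 18 antiviral effectors, 3 RNA sensors, 5 transcription factors and 2 feedback inhibitors. One array held wild-type mice and the other AID transgenic mice. On each array the Cy5 channel held liver RNA after 6 months of thioacetamide, given with the drinking water, and the Cy3 channel held untreated liver RNA of that genotype. Thioacetamide is a liver toxin with which fibrosis is modelled in rodents. The sources used here do not give the promoter and cell type of the transgene, the age and sex of the mice, or whether RNA was pooled. The comparisons address how these genes respond to the exposure and whether the response depends on the genotype.

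Interferons are secreted proteins that tell cells of an infection. Type I and type III interferons act through the kinases JAK1 and TYK2 on a complex that holds STAT2 and IRF9 and binds a DNA element called the interferon-stimulated response element (ISRE). Interferon gamma, made mainly by T cells and natural killer cells, acts through JAK1 and JAK2 and leads to factor binding at a different element, the gamma-activated site (GAS). The IRG and guanylate-binding GTPases gather on the vacuoles of intracellular parasites and bacteria and are strongly induced by interferon gamma, while the IFIT, OAS and MX families restrict viral RNA and virus assembly. In the liver, hepatocytes, Kupffer cells (the resident macrophages) and endothelial cells all respond to interferon.

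The promoters of some of these genes carry both elements side by side. The sequences below are the 100 bases before the transcription start, 5′ to 3′ along the gene, from the RefSeq promoter table of build GRCm38.p6. Capitals mark matches to the ISRE core GAAANNGAAA, or its reverse complement TTTCNNTTTC, and to the GAS core TTCNNNGAA, where N is any base. Igtp and Irgm2, both IRG genes on chromosome 11, and Gbp3 are shown because they were among the genes at least 2-fold higher in the treated AID transgenic liver. Tgtp1, an IRG gene near background here, and Isg15, an antiviral effector with 3 overlapping ISRE cores, are shown beside them.
Igtp, chr11:58199456-58199555, plus strand: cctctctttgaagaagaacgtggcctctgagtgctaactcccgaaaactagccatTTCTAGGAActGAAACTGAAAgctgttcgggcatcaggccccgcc
Irgm2, chr11:58214877-58214976, plus strand: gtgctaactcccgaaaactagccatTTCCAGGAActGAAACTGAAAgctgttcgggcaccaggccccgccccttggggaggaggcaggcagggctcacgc
Tgtp1, chr11:48992247-48992346, minus strand: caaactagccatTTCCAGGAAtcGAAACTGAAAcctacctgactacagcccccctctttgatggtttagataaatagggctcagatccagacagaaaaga
Gbp3, chr3:142559944-142560043, plus strand: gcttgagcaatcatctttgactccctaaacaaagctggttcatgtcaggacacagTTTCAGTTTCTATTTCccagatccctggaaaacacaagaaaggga
Isg15, chr4:156200819-156200918, minus strand: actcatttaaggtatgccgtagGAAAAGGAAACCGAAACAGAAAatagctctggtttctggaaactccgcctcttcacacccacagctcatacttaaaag

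In Igtp, Irgm2 and Tgtp1 the GAS core begins 11 bases before an ISRE core. Of the 27025 genes in the promoter table, 5 (0.0185%) hold this arrangement in the 250 bases before their start: these 3, Tgtp2 and Gm12185. The spacing of 11 was set to that of these 3 promoters, so the count holds them by construction. It describes how rare the arrangement is and is no test of the members. Aligned at the ISRE without gaps, 43 of 44 bases were identical between Igtp and Irgm2, 32 of 44 between Igtp and Tgtp1, and 33 of 44 between Irgm2 and Tgtp1. The promoters of Igtp and Irgm2 are thus near copies of each other over this stretch and not independent examples. Of the 29 members in the table, 15 (51.7%) hold an ISRE core in these 250 bases, against 3.46% of all genes in the table, and 10 (34.5%) hold a GAS core, against 8.13%. Both cores were searched on both strands, and 6 members hold both and 10 neither. An ISRE core was found in 3 of 3 guanylate-binding proteins in the table, 4 of 5 IRG genes, 6 of 13 antiviral effectors, 1 of 5 transcription factors and 0 of 2 RNA sensors. These matches describe letters in the promoters and were not measured as binding here.

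The 2 channels of the wild-type array differed in transcripts tied to sex. The Y-linked genes Ddx3y and Eif2s3y were lower after treatment in wild-type mice, by at least 17.6-fold and at least 32.1-fold. Xist, the RNA of the inactive X chromosome, was 6.36-fold higher. On the AID transgenic array Ddx3y and Eif2s3y had log2 ratios of -0.11 and -0.05. In the wild-type ratio, and wherever the treated wild-type liver enters a comparison, treatment and this difference cannot be told apart. Treated RNA was in Cy5 and untreated RNA in Cy3 on both arrays. In the ratio of either array, treatment and dye therefore cannot be told apart. All 7 hepatocyte markers were well above background in all 4 livers; Apoa1 was the 1 past 2-fold, at -1.79 in wild-type and -1.84 in AID transgenic mice. With 1 array per genotype no test is possible and no difference has a replicate check. A gene is counted as higher or lower at a fixed 2-fold, a log2 value of at least 1 in size. Values after ± are errors that the scanner software gave for its log2 ratio; they are technical and cover the spots, not the mice.

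In the ratio of treated over untreated liver, the interferon-induced genes were shifted upward in AID transgenic mice and less so in wild-type mice. In the AID transgenic mice 6 of 39 members were at least 2-fold higher in the treated liver (Igtp, Gbp3, Gbp4, Irgm2, Gbp6 and Usp18), where 1.05% of all measured genes were. In the wild-type mice 1 of 38 measured members, Gbp3, reached 2-fold, where 1.61% of all measured genes did, so that 1 of 38 is near the background. No member was 2-fold lower on either array, against 0.801% of genes on the AID transgenic array and 1.47% on the wild-type array. The median log2 ratio of the members was 0.58 in AID transgenic and 0.14 in wild-type mice, while the median of all measured genes was 0.02 on both arrays. Of the 39 members, 37 had a higher ratio on the AID transgenic array than on the wild-type array. So did 50.6% of all measured genes. The difference exceeded its scanner error for 24 of the members and lay below it on the negative side for 1, Iigp1. The share of all genes beyond their scanner error is not given here. The share of liver cells that express these genes and the RNA per cell cannot be told apart in whole liver.

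**Figure D1:**
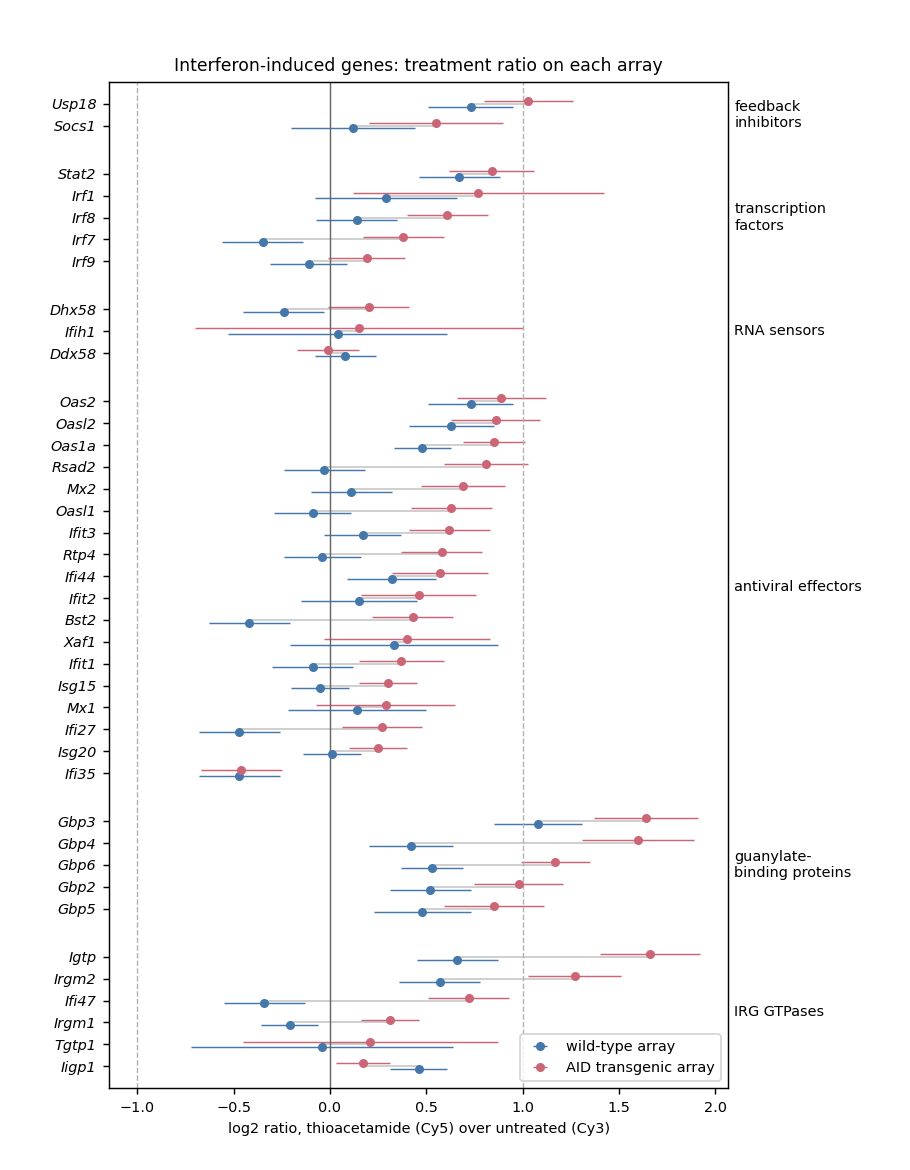
Log2 ratio of treated (Cy5) over untreated (Cy3) liver for each of the 39 interferon-induced genes, grouped by role, on the wild-type array (blue) and the AID transgenic array (red). Bars are the scanner software's error of the log2 ratio, dashed lines mark 2-fold, and each point is 1 array. In 37 of 39 genes the red point lies to the right of the blue one, and only Gbp3 is past 2-fold on the wild-type array. Of all measured genes, 50.6% had the higher ratio on the AID transgenic array.

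The IRG GTPases, which attack the vacuoles of intracellular pathogens, were all above 0 on the AID transgenic array. On the wild-type array 3 of 5 measured were above 0. Of all measured genes, 54.2% and 53.7% were above 0 on these arrays. The wild-type values below 0, of Ifi47 and Irgm1, turned above 0 (0.34 and 0.39) when the arrays were centred on their median without loess. Igtp (Irgm3), a regulatory member of the family, had normalized log2 levels of 11.08 and 11.74 in the untreated and treated wild-type livers, and of 10.94 and 12.60 in the untreated and treated AID transgenic livers. The treated AID transgenic liver was the highest of the 4, and the untreated livers were close to each other. Its log2 ratio was 0.66 ± 0.21 in wild-type and 1.66 ± 0.26 in AID transgenic mice, a fold of 1.58 against 3.15, and it ranked 912 of 21638 and 45 of 21724 measured genes. The probe was spotted 10 times on each array, and the SD between spots was 0.02 on both.

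Irgm2, another regulatory IRG protein, had log2 levels of 10.47 and 11.05 in wild-type and of 10.65 and 11.92 in AID transgenic livers, untreated then treated. As with Igtp, the treated liver was higher in both genotypes and highest in AID transgenic mice, with log2 ratios of 0.57 ± 0.21 and 1.27 ± 0.24. Ifi47 (Irg47) had levels of 10.51 and 10.17 in wild-type and of 10.76 and 11.48 in AID transgenic livers. The treated wild-type liver was thus the lowest and the treated AID transgenic liver the highest for Ifi47, and its log2 ratios were -0.34 ± 0.21 and 0.72 ± 0.21. Irgm1, which also acts in autophagy, had log2 ratios of -0.21 ± 0.15 and 0.31 ± 0.15. Iigp1 (Irga6) went the other way, with a higher ratio in wild-type (0.46 ± 0.15) than in AID transgenic mice (0.17 ± 0.14), and its 2 probes gave nearly the same values. Tgtp1 was well above background only in the treated AID transgenic liver. Its log2 ratio on that array was 0.21 ± 0.66, within its error, and its log2 value against the treated wild-type liver was 0.34. Tgtp1 and Tgtp2 are near-identical copies, so which of them gave the signal of either probe set is uncertain, and cross-hybridization within the IRG, guanylate-binding, OAS and IFIT families was not tested.

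The guanylate-binding proteins, large GTPases that lyse pathogen vacuoles and promote inflammasome activation, had the highest median ratio of any role on the AID transgenic array. All 5 were above 0 on both arrays, against 53.7% of all measured genes in wild-type and 54.2% in AID transgenic mice. The median log2 ratio of the 5 was 0.52 in wild-type and 1.17 in AID transgenic mice. Gbp3 had log2 levels of 8.35 and 9.43 in the untreated and treated wild-type livers and of 8.24 and 9.88 in the AID transgenic livers. Both treated livers were above both untreated livers, with ratios of 1.08 ± 0.23 and 1.64 ± 0.27, so that Gbp3 was past 2-fold in both genotypes. Gbp4 had levels of 7.28 and 7.70 in wild-type and of 7.39 and 8.98 in AID transgenic livers. Here the treated AID transgenic liver stood above the other 3, with ratios of 0.42 ± 0.22 and 1.60 ± 0.29 and a difference between the arrays of 1.17 ± 0.36.

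Gbp2 lay just under the threshold in AID transgenic mice, with levels of 8.26, 8.78, 8.33 and 9.31 in the order untreated and treated wild-type, untreated and treated AID transgenic. Its ratios were 0.52 ± 0.21 and 0.98 ± 0.23. Gbp5, known for its part in inflammasome assembly, had ratios of 0.48 ± 0.25 and 0.85 ± 0.26. Gbp6 had a ratio of 0.53 ± 0.16 in wild-type and 1.17 ± 0.18 in AID transgenic mice as the mean of 2 probes that disagreed in size. One probe gave 0.22 and 0.57 and the other 0.84 and 1.77, all 4 in the same direction, and the probe that was brighter over the 4 channels would leave Gbp6 under 2-fold. Under the names printed on the arrays its value would be 0.67, since the design prints Gbp6 for probes that match Gbp7.

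**Figure D2:**
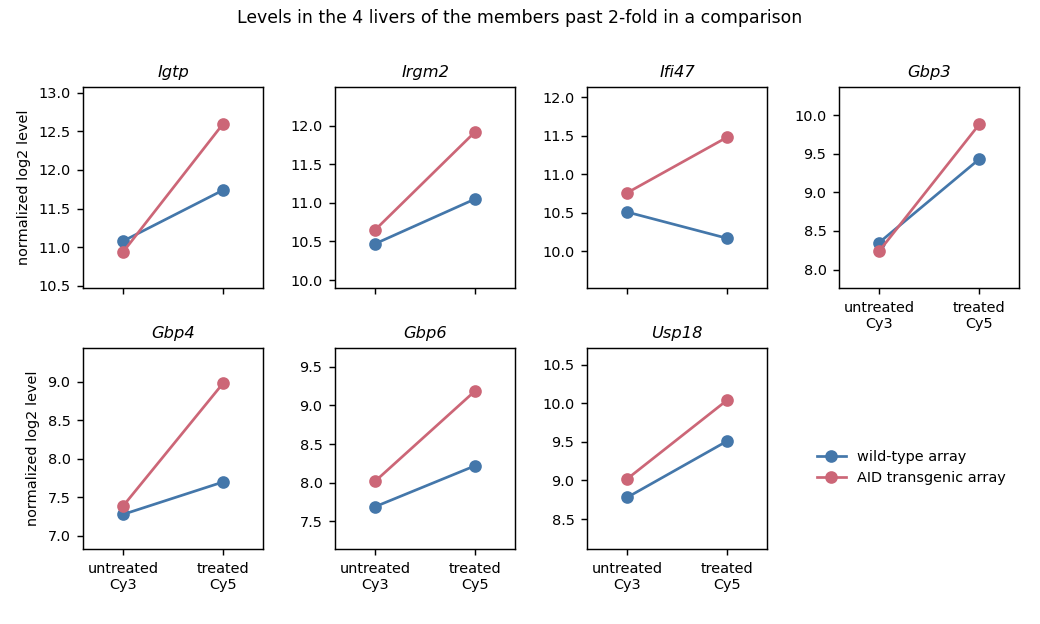
Normalized log2 levels in the 4 livers for the 7 members past 2-fold in any of the 5 comparisons, wild-type in blue and AID transgenic in red. Each point is 1 channel of 1 array, and every panel spans the same log2 range. Untreated livers of the 2 genotypes differ by at most 0.33 in these 7 genes, and the treated AID transgenic liver is the highest in each; for Ifi47 the treated wild-type liver is the lowest.

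Among the antiviral effectors none of 18 reached 2-fold on either array as normalized here. On the AID transgenic array 3 did with a normexp offset of 0, 6 with the scanner's processed signals and 10 with median centring. Median centring also brought 2 past it in wild-type mice. Counts over all measured genes rose too, from 229 of 21724 to 813, 2204 and 1629 on the AID transgenic array. On the wild-type array they rose from 349 of 21638 to 2123 with median centring. The brighter probe of Oas1a alone was past 2-fold in AID transgenic mice, at 1.03. As reported, 17 of the 18 effectors were above 0 on the AID transgenic array, where 54.2% of all measured genes were. On the wild-type array 10 of them were, near the 53.7% of all measured genes. The median log2 ratio of the effectors was 0.06 in wild-type and 0.51 in AID transgenic mice. Oas2, Oas1a and Oasl2, genes of the family that holds the enzymes making the activator of RNase L, were above 0 on both arrays. Oas2 had 0.73 ± 0.22 in wild-type and 0.89 ± 0.23 in AID transgenic mice, Oasl2 had 0.63 ± 0.22 and 0.86 ± 0.23, and Oas1a had 0.48 ± 0.15 and 0.85 ± 0.16. For these 3 genes the difference between the arrays was 0.16 ± 0.32, 0.23 ± 0.31 and 0.37 ± 0.22. Xaf1 and Ifi44 were also above 0 on both arrays, with 0.33 ± 0.54 and 0.40 ± 0.43 for Xaf1 and 0.32 ± 0.23 and 0.57 ± 0.25 for Ifi44.

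Other effectors were near or below 0 in wild-type and above 0 in AID transgenic mice, a split in sign that held with a normexp offset of 0 but not with median centring, where Bst2 and Ifi27 had 0.32 and 0.30 in wild-type mice. Rsad2 (viperin), an enzyme that makes a chain-terminating nucleotide, had log2 ratios of -0.03 ± 0.21 and 0.81 ± 0.22. Its levels were 8.50 and 8.47 in the wild-type and 8.17 and 8.98 in the AID transgenic livers, so the untreated AID transgenic liver was the lowest of the 4 and the treated one the highest. Bst2 (tetherin), which holds budding virus at the cell surface, had -0.42 ± 0.21 and 0.43 ± 0.21. Its levels were 13.45 and 13.03 in wild-type and 13.51 and 13.94 in AID transgenic livers. Ifi27 had -0.47 ± 0.21 and 0.27 ± 0.21, with levels of 14.37, 13.89, 14.56 and 14.84 in the same order. In both genes the treated wild-type liver was the lowest of the 4. Oasl1, a translational repressor of Irf7 RNA, had -0.09 ± 0.20 and 0.63 ± 0.21, and Rtp4 had -0.04 ± 0.20 and 0.58 ± 0.21.

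The IFIT genes, whose proteins bind viral RNA ends, were under 2-fold on both arrays, except that Ifit3 reached 1.21 in AID transgenic mice with median centring. Ifit3 had 0.17 ± 0.20 and 0.62 ± 0.21, Ifit2 had 0.15 ± 0.30 and 0.46 ± 0.30, and Ifit1 had -0.09 ± 0.21 and 0.37 ± 0.22. The ubiquitin-like modifier Isg15 had -0.05 ± 0.15 and 0.30 ± 0.15, and the exonuclease gene Isg20 had 0.01 ± 0.15 and 0.25 ± 0.15. The dynamin-like GTPase gene Mx2 had 0.11 ± 0.21 and 0.69 ± 0.22. Mx1 was well above background only in the treated livers, which were the Cy5 channel. Its log2 ratios of 0.14 ± 0.36 in wild-type and 0.29 ± 0.36 in AID transgenic mice were within their errors. Its level in the untreated AID transgenic liver, 6.64, was above that in the treated wild-type liver, 6.55. Ifi35 was the effector that was below 0 on both arrays, at -0.47 ± 0.21 and -0.46 ± 0.21, and turned above 0 on both (0.16 and 0.15) when the arrays were only centred on their median.

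The RNA sensors of the RIG-I family were under 2-fold on both arrays, with medians of 0.04 and 0.15. Ddx58 (RIG-I) had 0.08 ± 0.16 and -0.01 ± 0.16, and Ifih1 (MDA5) had 0.04 ± 0.57 and 0.15 ± 0.85. Dhx58 (LGP2) had -0.24 ± 0.21 and 0.20 ± 0.21, a difference of 0.45 ± 0.30 that exceeded its error. With median centring the 3 had 0.22 to 0.49 in wild-type and 0.30 to 0.65 in AID transgenic mice. Of the transcription factors, all 5 were above 0 on the AID transgenic array, where 54.2% of all measured genes were. None of the 5 reached 2-fold as normalized here. With the scanner's processed signals Irf1 did (1.11), and with median centring Stat2 (1.51) and Irf8 (1.21) did, Stat2 in wild-type mice too. Stat2, part of the ISRE-binding complex, had 0.67 ± 0.21 in wild-type and 0.84 ± 0.22 in AID transgenic mice, with a difference of 0.17 ± 0.31, within its error. Its partner Irf9 had -0.11 ± 0.20 and 0.19 ± 0.20. Irf7, the amplifier of type I interferon genes, had -0.35 ± 0.21 and 0.38 ± 0.21, and Irf8, a factor of myeloid cells, had 0.14 ± 0.21 and 0.61 ± 0.21.

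Irf1, an early target of interferon gamma, had a mean of 0.29 ± 0.37 and 0.77 ± 0.65 over 2 probes, of which 1 was well above background only in the treated wild-type liver. The bright probe alone gave 0.58 ± 0.21 in wild-type and 1.52 ± 0.25 in AID transgenic mice, and its levels were 10.74 and 11.32 in wild-type and 10.44 and 11.96 in AID transgenic livers. The feedback inhibitor Usp18, which removes ISG15 from proteins and blocks the type I receptor, had levels of 8.78 and 9.51 in wild-type and of 9.02 and 10.04 in AID transgenic livers. Its ratios were 0.73 ± 0.22 and 1.03 ± 0.23, the latter just past 2-fold, and their difference of 0.30 ± 0.31 did not exceed its error. Socs1, an inhibitor of JAK kinases, was well above background only in the treated livers, which were the Cy5 channel. Its log2 ratios were 0.12 ± 0.32 in wild-type, within its error, and 0.55 ± 0.35 in AID transgenic mice.

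**Figure D3:**
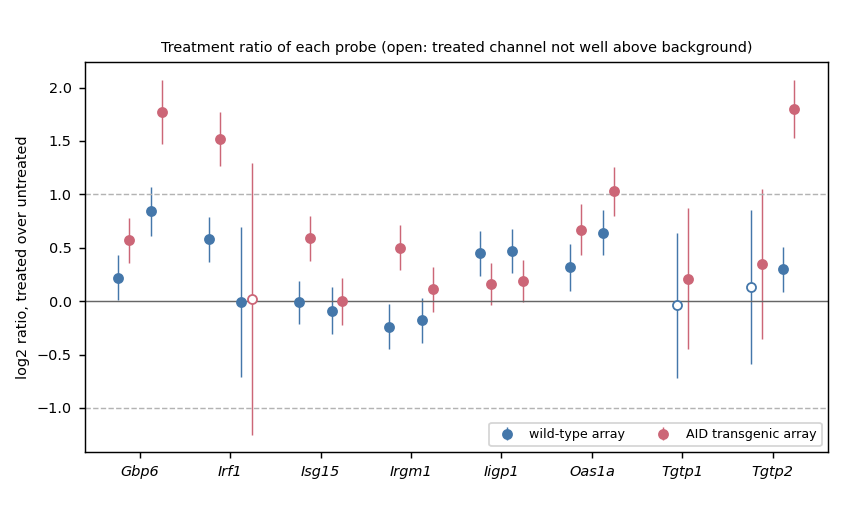
Log2 ratio of treated over untreated liver for each probe of 8 genes, wild-type in blue and AID transgenic in red, with the scanner software's error as bars; Tgtp2 is a near-identical copy of Tgtp1 outside the 39. Open points are probes not well above background in the treated channel. Probes of Irf1, Tgtp2, Gbp6 and Isg15 differed in size on the AID transgenic array, where the brighter Irf1 probe gave 1.52 and the other 0.02.

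For Isg15 and Irgm1, too, the brighter probe gave the larger difference between the arrays. The brighter Isg15 probe gave -0.01 in wild-type and 0.59 in AID transgenic mice, and the other was near 0 on both. The brighter Irgm1 probe gave -0.24 and 0.50, and the other -0.18 and 0.11. For Gbp6 the probe that was brighter over the 4 channels gave the smaller one, 0.35 against 0.94. The 2 probes of Iigp1 lay close together, with an SD of 0.02 between probes on the AID transgenic array. Those of Oas1a had an SD of 0.25 there and lay on either side of 2-fold, at 0.67 and, for the brighter one, 1.03. Their differences between the arrays were 0.36 and 0.39.

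Set directly against each other, the difference between the 2 treatment ratios was at least 2-fold in AID transgenic mice for 2 of 39 members, Gbp4 (1.17 ± 0.36) and Ifi47 (1.06 ± 0.30), against 0.827% of all measured genes, and 2-fold the other way for none, against 0.934%. Igtp followed at 1.0 ± 0.33, which before rounding was just under the threshold. The median difference was 0.45 over the members and 0.56 over the 11 GTPases, and 0.36 over the 28 members outside these families. Over all genes it was 0.00. The ratios themselves had medians of 0.50 and 0.98 for the GTPases and of 0.10 and 0.51 for the others, in wild-type and AID transgenic mice.

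The 2 arrays were also compared 1 channel at a time, which separates the untreated from the treated livers. In untreated livers 0 of 36 measured members were 2-fold higher in AID transgenic than in wild-type mice and 0 were lower, against 0.289% and 0.250% of all measured genes, and their median log2 value was -0.03. In treated livers 2 of 39 members, Ifi47 (1.31) and Gbp4 (1.28), were 2-fold higher in AID transgenic mice and none was lower, against 0.640% and 0.649% of all measured genes, and the median was 0.34. Without regard to size, 35 of 39 members were higher in the treated AID transgenic than in the treated wild-type liver, where 50.2% of all measured genes were. In the untreated livers 21 of 36 measured members were lower in AID transgenic mice, near the 50.8% of all measured genes. These 2 comparisons and the difference of ratios use the same 4 channels and are not independent of each other.

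**Figure D4:**
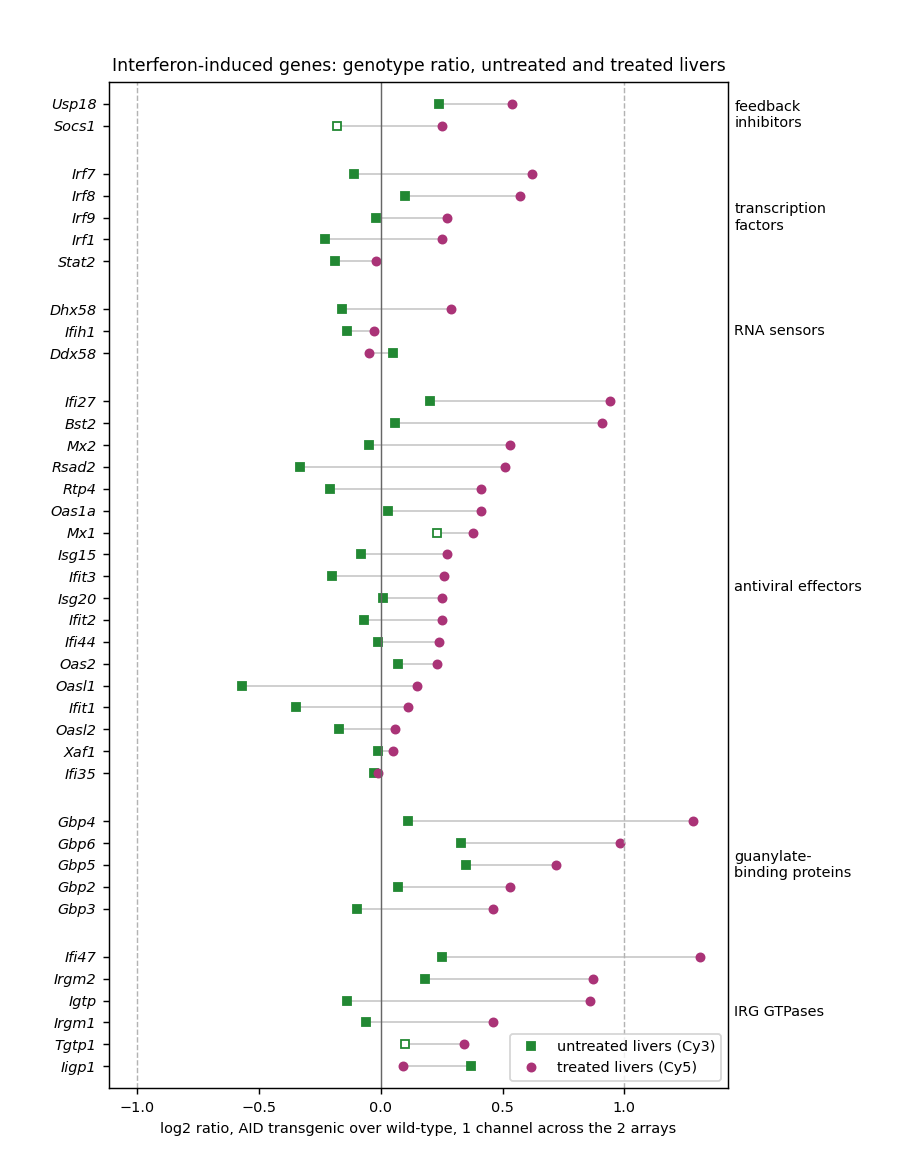
Log2 ratio of AID transgenic over wild-type mice for each of the 39 genes in untreated livers (green squares) and treated livers (purple circles), grouped by role; each point sets 1 channel of 1 array against that of the other. Open squares are genes not well above background in either untreated liver, and dashed lines mark 2-fold. Green points scatter around 0, with a median of -0.03, and 35 of 39 purple points lie above 0.

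The largest differences between the treated livers were in GTPases and in a pair of effectors. After Ifi47 and Gbp4 came Gbp6 at 0.98, Ifi27 at 0.94, Bst2 at 0.91, Irgm2 at 0.87 and Igtp at 0.86. In the untreated livers the same 5 genes had 0.33, 0.20, 0.06, 0.18 and -0.14. Oasl1 had the lowest untreated value, at -0.57, and Rsad2 and Ifit1 followed at -0.33 and -0.35. For Oasl1 most of the difference between the arrays (0.72 ± 0.29) thus lay in the untreated livers, since the treated livers differed by 0.15. Iigp1 had 0.37 in untreated and 0.09 in treated livers. Stat2, Ifi35, Ifih1 and Ddx58 were the 4 members not higher in the treated AID transgenic liver, with values from -0.05 to -0.01.

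The promoter elements were set beside these ratios as a description. Members with an ISRE core had a median log2 ratio of 0.33 in wild-type mice, over the 14 measured there, and 0.81 in AID transgenic mice, over 15, and the 14 without one had 0.06 and 0.43. The median difference between the arrays was 0.46 with and 0.27 without the core. The group with the core holds 3 of 3 guanylate-binding proteins and 4 of 5 IRG genes of the table. The split by core thus overlaps the split by role, and the 2 were not told apart. Gbp4, Gbp6 and Usp18 have no promoter in the table and are in neither group. Among the members the values ranged widely. Ifi47, with the second-largest difference (1.06), holds neither core in its 250 bases. Isg15, with 3 overlapping ISRE cores, had a difference of 0.35. Igtp and Irgm2, with the paired GAS and ISRE, had ratios of 1.66 and 1.27 on the AID transgenic array. Tgtp1, with the same pair, was near background at its 1 probe, and its ratio there is uncertain. It was 0.21 ± 0.66 as normalized here and 2.04 with the scanner's processed signals. Its copy Tgtp2 had 1.80 at its brighter probe and 0.35 at the other.

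Upstream of these genes, the interferons themselves gave little signal. Ifnb1 and Ifna4 were not well above background in any channel. Ifng was well above background only in the treated AID transgenic liver, and its log2 ratio on that array, 0.20 ± 0.54, was within its error. Of 7 interferon genes on the arrays 5 were measured in AID transgenic mice, and none reached 2-fold. None of 9 receptor and kinase genes reached 2-fold on either array. The type I receptor genes Ifnar1 and Ifnar2 had -0.04 ± 0.14 and -0.10 ± 0.20 in wild-type and 0.03 ± 0.15 and -0.46 ± 0.21 in AID transgenic mice. The interferon gamma receptor genes Ifngr1 and Ifngr2 had 0.40 ± 0.21 and 0.48 ± 0.21 in wild-type and 0.34 ± 0.21 and 0.41 ± 0.21 in AID transgenic mice. Of 14 signalling and upstream factors, Stat3 and Irf3 among them, none reached 2-fold in either ratio, with medians of -0.13 and -0.05.

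A further list of 46 measured interferon-induced genes outside the 39 gave 2 at 2-fold higher in wild-type and 5 in AID transgenic mice, and none lower. Of all measured genes 1.61% and 1.05% were higher, and 1.47% and 0.801% lower, in wild-type and AID transgenic mice. The medians of the list were 0.12 and 0.35. Cxcl10, a chemokine that draws T cells, was higher in both, at 2.31 ± 0.32 and 2.70 ± 0.34, as was Gbp11 at 1.43 ± 0.26 and 1.86 ± 0.28. The T cell chemokine gene Cxcl9 had 0.46 ± 0.15 and 1.09 ± 0.17, and Tgtp2 had 0.22 ± 0.37 and 1.08 ± 0.38 as the mean of 2 probes. Gbp2b (Gbp1) had -0.17 ± 0.29 in wild-type and 1.12 ± 0.24 in AID transgenic mice. Its difference of 1.29 ± 0.38 and that of the immunoproteasome gene Psmb9, 1.06 ± 0.30, were the 2 in the list past 2-fold between the arrays. Of all measured genes 0.827% were past it in this direction. Psmb9 itself had -0.26 ± 0.21 and 0.80 ± 0.22.

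Markers of several other cell types differed between the arrays beside the interferon-induced genes. All 10 markers of macrophages and Kupffer cells were well above background. Their median log2 ratio was 0.15 in wild-type and 1.0 in AID transgenic mice. In the latter 5 of 10 were 2-fold higher, against 1.05% of all measured genes, and none was lower, against 0.801%. Cd5l (0.15 and 1.48) and Tyrobp (0.15 and 1.17) led, while Cd68 had -0.16 and -0.00 and Csf1r -0.06 and 0.61. The summed level of the 10 markers was 15914 in the untreated and 19398 in the treated wild-type liver, and 20962 and 43276 in the AID transgenic livers. Cd5l, at a log2 level of 13.75, weighs most in the sum of the treated AID transgenic liver. Marco, whose log2 value of AID transgenic over wild-type was 2.54 for untreated livers and 2.42 for treated ones, carried the gap between the untreated sums; without it the sums were 14839, 17578, 14753 and 33534 in that order. Of 5 neutrophil markers, S100a9 had -0.51 in wild-type and 1.60 in AID transgenic mice, S100a8 -0.30 and 0.79, Ly6g 0.22 and -0.22 and Retnlg -0.21 and 0.00, and Mpo was not well above background in any liver. The summed neutrophil level was 970 and 852 in the untreated and treated wild-type livers and 761 and 1281 in the AID transgenic livers; without S100a9 it was 571, 572, 530 and 582. The median of T and NK cell markers was -0.02 and 0.15, and 5 and 6 of 10 measured were above 0, in wild-type and AID transgenic mice. Their summed level was 4034 and 3442 in wild-type and 4600 and 4134 in AID transgenic livers, untreated then treated, with Ncr1 not well above background. Cd3e (-0.33 and -0.31) and Cd4 (-0.39 and -0.42) were the brightest of these markers and weigh most in the sum. Gzma had 0.06 and 0.77. The summed level of the plasmacytoid dendritic cell markers, the cells that make most type I interferon, was 1.15-fold and 1.14-fold higher after treatment in wild-type and AID transgenic mice. Siglech, the brightest of the 3, weighs most in this sum and had 0.24 and 0.23. The median log2 ratio of the 3 was 0.05 on both arrays. Of all measured genes 50.6% had a higher ratio in AID transgenic than in wild-type mice and 49.4% a lower one. All 5 endothelial markers had a higher one, with a median difference of 0.34. All 4 stellate cell markers had a lower one, with a median difference of -0.98, led by Acta2 at -1.56 and Lrat at -1.33. Of 4 cholangiocyte markers 3 had a lower one, led by Krt19 at -1.46. The part of these cells in the interferon-induced genes was not tested.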

How the data were processed

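Scanner files of both arrays were used as the authors deposited them. They hold mean signals and background medians as unprocessed intensity values, per the file headers. They also hold the log10 of Cy5 over Cy3 and its error, a score from the error model of the scanner software, per the file headers; the error was turned into log2 units and was not computed for the loess-normalized ratio. The deposited series table equalled this log10 ratio on all 44397 spots, with medians of 0. Per the file headers the arrays were extracted with Feature Extraction 10.7.3.1, and the submitters' processing notes name 10.5.1.1.

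In R 4.3.3 with limma 3.58.1, signals were corrected with normexp (offset 50), normalized by loess within arrays, with weight 0 for control and outlier spots, and by Aquantile between arrays for levels and channel comparisons. The steps were tested on simulated data. Of 43020 non-control spots, 56% in wild-type and 53.9% in AID transgenic mice were well above background in Cy3, the untreated channel. In Cy5, the treated channel, 68.4% and 68.8% were, so a gene near background met this flag more readily in the treated livers. Spots, then probes, were averaged per gene. A gene was measured when a probe was well above background in at least 1 channel used. Bounds ("at least") compare normalized channel levels, the dim side taken at the higher of its own level and the lowest level well above background, and are open to dye bias. Names follow the array, updated through RefSeq; 47 of 49 member probes matched by accession. All 39 members are accounted for, and other genes are named when on the pathway lists and past 2-fold, or when ligands or receptors; marker genes, Stat3, Irf3, Gm12185 and Tgtp2 were named with their values known. The members and lists were chosen with earlier results of these data known. No test was possible with 1 array per genotype. Some genes are not reported here.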

Additional observations from a re-analysis of the deposited data

Results flagged for a closer look

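In 5 members the treated liver was lower than the untreated one on the wild-type array and higher on the AID transgenic array, each beyond its scanner error. The share of all genes that did so was not counted. The difference of the log2 ratios, AID transgenic minus wild-type, was 1.06 for Ifi47, 0.85 for Bst2, 0.75 for Ifi27, 0.73 for Irf7 and 0.52 for Irgm1. These differences were not tested, since each genotype has 1 array. Without the intensity-dependent loess step, with arrays centred on their median, all 5 were above 0 on both arrays, with wild-type log2 ratios of 0.34 for Ifi47, 0.32 for Bst2, 0.30 for Ifi27, 0.11 for Irf7 and 0.39 for Irgm1. The differences were then 1.07, 0.84, 0.73, 0.75 and 0.51 in that order.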

How the results depend on the processing

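The size and sign of a ratio on 1 array depended on the dye correction, and the difference between the arrays depended on it less. With median centring the median of all genes was 0.30 on both arrays, against 0.02, and 94.7% of calls in wild-type and 96.8% in AID transgenic mice were higher, against 52.2% and 56.8%. Members at 2-fold in AID transgenic mice, 6 as reported, numbered 12 with a normexp offset of 0, 17 with the scanner's processed signals, 21 with median centring and 19 at 1.5-fold. In wild-type mice, 1 as reported, they numbered 9 with median centring and 6 at 1.5-fold. Of 21724 genes measured on the AID transgenic array, 229 were higher as reported, and 813, 2204, 1629 and 931 in these settings, in that order. On the wild-type array 349 of 21638 were, against 2123 with median centring and 1197 at 1.5-fold. Counts over all genes thus rose as well. The member median was 0.38 with processed signals and 0.58 with median centring in wild-type mice, and 0.84 and 1.14 in AID transgenic mice. Counts between the arrays went from 2 to 5 with processed signals for the difference and for the treated livers, and to 11 and 9 at 1.5-fold. Over all measured genes, those higher went from 185 to 1229 and from 143 to 620 with processed signals. At 1.5-fold they numbered 607 and 498. Of all calls, 64.7% in wild-type and 71.9% in AID transgenic mice were higher with an offset of 0, and 72.5% and 79.3% with processed signals. Members below 0 in wild-type and above 0 in AID transgenic mice numbered 13 of 39 in the normalization used here (Tgtp1, not measured in wild-type mice, among them). They numbered 15 with an offset of 0, 14 with processed signals and 1 with median centring. Of all measured genes 46.3% were below 0 in wild-type and 54.2% above 0 in AID transgenic mice as normalized here. The share of all genes with both was not counted. The AID transgenic ratio was the higher one in 37, 37, 35 and 36 of 39. As normalized here, it was so in 50.6% of all measured genes. Gbp6 fell under 2-fold with the brightest probe (0.57) or the names printed on the arrays (0.67), the latter chosen after seeing the data. With the brightest probe Irf1 (1.52) and Oas1a (1.03) passed 2-fold in AID transgenic mice, so that 7 members did. The cause of these shifts was not tested. The other 77 values of members past 2-fold, and the counts and medians not named here, stayed on their side of the threshold or within 1.5 times or the scanner error, and no sign of these turned. No paired analysis was possible because each genotype has 1 array, and no replicate could be left out.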
